A study of Mus musculus with 6 samples.

Results

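RAS-MAPK signalling carries signals from activated receptors to the nucleus through a relay of adaptors, small GTPases and kinases. The transcripts described here encode the parts of that relay, from the phosphatase SHP2 and its docking proteins, through the exchange factors SOS, the RAS GTPases and the RAF kinases, to MEK, ERK and the RSK kinases. The rule names 33 genes and uses no measured value, although the list was drawn up with earlier results of these data known. An array feature was taken as a member when the platform's annotation gave it exactly one of these symbols. Of the 33 genes, 28 had such a feature, with 32 features in all among 34760 on the array. The other 5 genes, Hras, Frs2, Mapk3, Rps6ka1 and Rps6ka2, are not analysed here. A total of 25 genes had 1 feature each, and Mras, Lamtor3 and Pebp1 had several.

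The cells were mouse embryonic stem cells of strain C57Bl/6, and all of them, controls included, stably carried the chimeric receptor GRgp-Y118F. Its outer part binds granulocyte colony-stimulating factor (GCSF), and its inner part comes from gp130, the signalling subunit of the receptor for leukaemia inhibitory factor (LIF). There were 3 groups of 2 arrays: control cells with no treatment, cells given GCSF for 1 h, and cells given LIF together with 1 uM PD0325901 for 1 h, labelled LIF/PD. Per the series' design text, treated cells first spent 6 h in serum-free medium. For the controls the sources name no such step. If the controls had none, its effect cannot be told apart from that of treatment in any comparison with control. They also name neither the number of clones of the line nor the promoter that drives the receptor. The series' title names targets of STAT3, the transcription factor that gp130 activates, as its aim. Whether the 2 arrays of a group stand for 2 cultures is not stated, and the p-values therefore reflect a spread that may be technical.

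As background, an activated gp130 chain works through separate tyrosines. Those near its end recruit STAT3, while one nearer the membrane recruits SHP2, which with the docking protein GAB1 and the adaptor GRB2 leads to RAS, RAF, MEK and ERK. The Y118F change removes that SHP2 site from the chimeric receptor. PD0325901 inhibits MEK, the kinase directly above ERK. In mouse embryonic stem cells STAT3 activity favours self-renewal, and ERK activity favours exit from it. Most parts of the relay are regulated as proteins, by phosphorylation and by GTP loading, which transcript arrays do not measure.

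All 8 embryonic stem cell markers examined, Pou5f1, Nanog and Sox2 among them, lay above the filter on low values. So did 16912 of the 28187 features outside the array's control block. Of the marker features on the array, 4 of 4 for neuroectoderm, 3 of 3 haematopoietic and 3 of 4 for trophoblast lay above it. For endoderm 4 of 7 did, and for mesoderm 2 of 3, so lying above the filter does not mark a cell type. The 7 of 7 feeder fibroblast markers above it had mean log2 values of 9.08 to 12.24. Their summed log2 values were 72.74 to 72.88 in controls, 72.94 to 72.96 under GCSF and 72.71 to 72.80 under LIF/PD. These sums hide moves in both directions: Col3a1, a collagen gene, rose by 0.29 ± 0.05 under GCSF, while Thy1 and Pdgfrb lay at -0.10 ± 0.04 and -0.07 ± 0.04 without passing. Of the markers of other cell types, Tfap2c (trophoblast) rose by 0.74 ± 0.06 and Pax6 (neuroectoderm) by 0.54 ± 0.07 under GCSF, and the stem cell marker Tdgf1 by 0.30 ± 0.03. Other markers of the same lists had lower means under GCSF than in controls, without passing. Utf1 (stem cell) went from 12.308 to 12.150, Tubb3 (neuroectoderm) from 8.565 to 8.443 and Krt7 (trophoblast) from 9.016 to 8.966. No marker passed for LIF/PD against control, where mean Tfap2c was 9.673 against 9.239 and mean Pax6 8.201 against 7.798. Between the treatments 2 stem cell markers passed. The part of other cells' RNA in the results was not tested. The median of all features was 7.11 to 7.16 on the 6 arrays. The features numbered below the first annotated one, treated as the array's control block, had a median of 6.84 on GCSF replicate 1 and 6.58 to 6.71 on the others. Arrays correlated at 0.997 to 0.998 within groups and 0.995 to 0.998 between groups. Genes known to respond to STAT3 and ERK were used to check the labels. Socs3, a STAT3 target, rose by 3.13 ± 0.07 on the log2 scale in the arrays labelled GCSF and by 2.62 ± 0.07 in those labelled LIF/PD, on its feature 10393449. A second Socs3 feature, 10383010, rose by 0.51 ± 0.08 under GCSF and lay 0.39 ± 0.08 above control under LIF/PD, where it did not pass. Dusp6, an ERK phosphatase gene that ERK activity induces, fell by 1.56 ± 0.04 under the GCSF label and differed by 0.03 ± 0.04 under the LIF/PD label. Spry4 and Egr1, which ERK also induces, fell by 1.83 ± 0.06 and 1.49 ± 0.08 under GCSF and differed by 0.05 ± 0.06 and -0.18 ± 0.08 under LIF/PD. MEK inhibition is known to lower these ERK-induced transcripts, and here they were low in the group whose label names no MEK inhibitor and near control in the group whose label names one. The labels were kept, and every direction below holds for the arrays that carry the label. Each value after ± is a standard error from limma (SE) for a difference between 2 groups with n = 2 arrays each.

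No member passed the test in any comparison, while the response genes moved by up to 3.13 on the same scale. All 32 features lay above the filter and were tested. With limma and Benjamini-Hochberg adjustment over 16912 features, 0 of 32 passed an adjusted p of 0.05 for GCSF against control, where 1.17% of all features tested did. For LIF/PD against control 0 of 32 passed, against 0.065% of all features, and for LIF/PD against GCSF 0 of 32 passed, against 0.846%. Since fewer than 1 of 32 calls would correspond to each of these shares, a count of 0 does not set the members apart. Before adjustment, a p under 0.05 was reached by 5 of the 32 for GCSF, against 12.1% of all features, by 4 for LIF/PD, against 6.59%, and by 4 between the treatments, against 11.8%. The median difference over the members was 0.01 for GCSF, 0.02 for LIF/PD and 0.00 between the treatments. Over all tested features it was 0.01, 0.01 and 0.00. The median absolute difference was 0.07, 0.04 and 0.05 for the members and 0.06, 0.05 and 0.05 for all features. In bulk RNA, fewer cells of a type and less RNA per cell cannot be told apart.

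**Figure D1:**
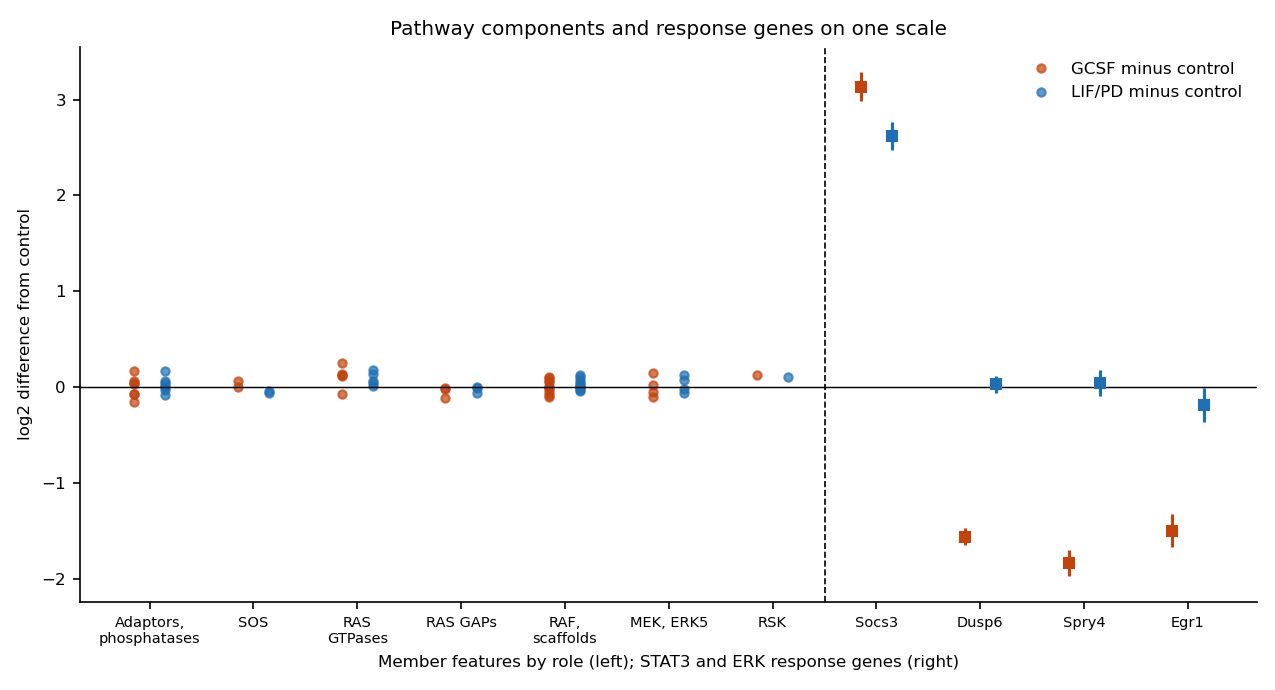
Log2 difference from control of the 32 member features by role (left of the dashed line, circles) and of Socs3, Dusp6, Spry4 and Egr1 (right, squares with 95% intervals), for GCSF in orange and LIF/PD in blue. Member differences run from -0.15 to 0.25 for GCSF and from -0.08 to 0.18 for LIF/PD, while Socs3 lies at 3.13 and 2.62. Socs3 is shown by its feature with the smallest p only, 10393449. Its other feature, 10383010, is not plotted and had means of 6.92 in controls, 7.43 under GCSF and 7.31 under LIF/PD.

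The intervals say how large a change in a feature's value these arrays leave room for, given the spread between arrays of a group. That spread may be technical, as said above for the p-values, so the intervals need not cover variation between cultures. They hold for the array value of a feature, and features of the same gene can differ widely, as those of Socs3 did. Each feature's 95% interval came from limma's moderated standard error, and its half-width was 0.12 on the log2 scale for the median member and 0.22 for the widest. In all 3 comparisons the intervals of all 32 features lay inside a 1.5-fold change in either direction, as did those of 98.7%, 99.2% and 99.0% of all tested features, so this does not set the members apart. Inside a 1.2-fold change lay 26 features for GCSF against control, 29 for LIF/PD against control and 27 for LIF/PD against GCSF. Over all tested features, 74.4%, 77.6% and 74.6% lay inside 1.2-fold. The bounds farthest from 0 were 0.37 upward, for Mras under GCSF, which is 1.29-fold, and -0.30 downward, for Pebp1 under GCSF, which is 1.23-fold. These are intervals for single features, not for all of them at once.

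Upstream sequence was set beside the values, since the response genes are controlled by STAT3, ETS, EGR, AP-1 and CREB family factors. RefSeq start sites on GRCm38.p6 gave 33 windows of 250 bases upstream for 25 of the 28 member genes. Motifs were searched on both strands: TTCNNNGAA for STAT, CCGGAAGT for ETS, TGACGTCA (the CRE) for CREB, TGANTCA for AP-1 and GCGNGGGCG for EGR, where N is any base. No motif's letters contain another's. The STAT letters were in 2 of 33 member windows (6.06%), in 1 start of Gab1 and 1 of Rras, and in 7.02% of 32851 windows of all genes. The CRE was in the Ptpn11 window and, as 2 matches, in that of Braf. For the ETS letters the shares in member windows and in all windows were 6.06% and 2.88%, for the CRE 6.06% and 1.55%, for AP-1 6.06% and 6.75%, and for EGR 9.09% and 4.70%. Median GC content was 63.2% in the member windows and 52.4% in all windows. A match is a description of letters and not a bound site.

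The windows of 3 members are shown, 5′ to 3′ on the gene's strand, with motif matches in capitals: Ptpn11 because it encodes SHP2, Map2k1 because it encodes the kinase that PD0325901 inhibits, and Shc1 because it differed most between the treatments. They lie at chr5:121191398-121191647 (minus strand), chr9:64253606-64253855 (minus strand) and chr3:89418301-89418550 (plus strand, the first of its 2 starts).
Ptpn11: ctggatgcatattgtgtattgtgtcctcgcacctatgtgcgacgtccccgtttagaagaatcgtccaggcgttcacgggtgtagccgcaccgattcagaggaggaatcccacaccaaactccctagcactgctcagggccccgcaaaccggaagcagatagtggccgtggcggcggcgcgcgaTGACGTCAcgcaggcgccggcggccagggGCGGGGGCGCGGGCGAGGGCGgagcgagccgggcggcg
Map2k1: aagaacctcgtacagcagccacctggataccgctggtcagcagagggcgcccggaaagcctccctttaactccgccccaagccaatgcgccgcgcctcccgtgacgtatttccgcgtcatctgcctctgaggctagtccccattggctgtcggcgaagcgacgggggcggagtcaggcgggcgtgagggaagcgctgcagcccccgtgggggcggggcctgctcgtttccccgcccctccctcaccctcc
Shc1: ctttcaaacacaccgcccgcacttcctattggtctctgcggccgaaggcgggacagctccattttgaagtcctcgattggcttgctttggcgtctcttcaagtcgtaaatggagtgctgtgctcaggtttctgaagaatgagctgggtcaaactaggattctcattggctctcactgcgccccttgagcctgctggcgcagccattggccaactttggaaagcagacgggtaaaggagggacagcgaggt
The Ptpn11 window holds 1 CRE and 3 EGR matches, which overlap one another, and the windows shown for Map2k1 and Shc1 hold none of the 5 motifs. The window of the other Shc1 start, at chr3:89421371-89421620, holds 1 AP-1 match.

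At the receptor, 7 of the 8 adaptors and regulators were measured and none passed. Ptpn11 (SHP2) read 10.02 and 10.01 log2 units on the control arrays, 10.12 and 10.05 under GCSF, and 10.07 and 10.09 under LIF/PD. Both treated groups lay above both controls without overlap, by 0.07 ± 0.04 (adjusted p = 0.561) for GCSF and 0.06 ± 0.04 (adjusted p = 0.821) for LIF/PD. Between the treatments the difference was 0.00 ± 0.04, with an interval of -0.10 to 0.09. Grb2, the adaptor that brings SOS to the membrane, read 8.73 and 8.88 in controls, 8.92 and 9.03 under GCSF, and 9.03 and 8.92 under LIF/PD. The treated arrays were the 4 highest of the 6, and the differences were 0.17 ± 0.07 under either label, with adjusted p = 0.392 for GCSF and 0.741 for LIF/PD. The controls lay 0.15 apart, and without the lower, replicate 1, the differences were 0.09 and 0.10.

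Shc1 encodes an adaptor that links phosphorylated receptors to GRB2, and it stood lowest under GCSF. Its values were 9.61 and 9.55 in controls, 9.43 and 9.42 under GCSF, and 9.65 and 9.59 under LIF/PD. The GCSF arrays lay below the other 4 without overlap. GCSF minus control was -0.15 ± 0.05 (adjusted p = 0.218), and LIF/PD lay 0.19 ± 0.05 above GCSF (adjusted p = 0.126). The latter was the smallest adjusted p of any member between the treatments. Against control, LIF/PD differed by 0.04 ± 0.05.

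The docking proteins GAB1 and GAB2 bind SHP2 once phosphorylated. Gab1 read 11.38 and 11.27 in controls, 11.38 and 11.35 under GCSF, and 11.37 and 11.30 under LIF/PD, so the 3 groups overlapped. Its differences were 0.04 ± 0.05 for GCSF (adjusted p = 0.783) and 0.01 ± 0.05 for LIF/PD (adjusted p = 0.982). Gab2 had group means of 8.43, 8.36 and 8.35 for control, GCSF and LIF/PD, with both treated groups below control without overlap and differences of -0.07 ± 0.05 and -0.08 ± 0.05. Ptpn6, the gene of the phosphatase SHP1, had means of 9.16, 9.09 and 9.12. Cbl, a ubiquitin ligase that directs activated receptors to breakdown, had means of 10.22, 10.25 and 10.22, and its 6 values spanned 0.07. Adjusted p for these 3 genes ran from 0.672 to 0.804 for GCSF.

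The exchange factors SOS1 and SOS2 load RAS with GTP, and neither gene passed. Sos1 read 9.17 and 9.14 in controls, 9.29 and 9.14 under GCSF, and 9.05 and 9.13 under LIF/PD. Both LIF/PD arrays were below both GCSF arrays, a difference of -0.13 ± 0.06 (adjusted p = 0.470), and GCSF overlapped control. Without GCSF replicate 1 that difference was -0.05. Sos2 had means of 8.05, 8.05 and 8.01, with adjusted p of 0.862 or more in the 3 comparisons.

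Among the RAS GTPases, 4 of 5 genes were measured, with 5 features, 2 of them of Mras. Of the 5 features, 4 were positive for GCSF and 5 for LIF/PD, against the same controls. Over all 16912 tested features, 9084 and 9793 were positive. Mras encodes M-RAS, which with SHOC2 helps to activate RAF, and its feature 10595981 (feature 2 in the plots) had the smallest adjusted p of any member. It read 8.21 and 8.22 in controls, 8.49 and 8.44 under GCSF, and 8.41 and 8.38 under LIF/PD, so all 4 treated arrays lay above both controls. The difference was 0.25 ± 0.05 for GCSF (adjusted p = 0.0865) and 0.18 ± 0.05 for LIF/PD (adjusted p = 0.658). LIF/PD lay below GCSF without overlap, with a difference of -0.07 ± 0.05 (adjusted p = 0.672). The second Mras feature, 10595979, read 7.44 and 7.56, then 7.64 and 7.64, then 7.62 and 7.65 in the same order. It too was higher in all treated arrays, by 0.14 ± 0.07 for both treatments (adjusted p = 0.454 for GCSF and 0.780 for LIF/PD). In another setting 1 feature was kept per gene, that with the highest mean, and features without exactly 1 symbol were left out. The limma fit was then repeated over 12949 genes. There feature 10595981 passed for GCSF (adjusted p = 0.0413), the only member to pass under any setting tried. Its unadjusted limma p also differed, at 0.00077 there and 0.0015 in the main fit. Of those genes 2.13% passed.

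Nras encodes N-RAS, one of the classical RAS switches, and did not pass. Its values were 10.23 and 10.20 in controls, 10.42 and 10.27 under GCSF, and 10.20 and 10.27 under LIF/PD, a difference of 0.13 ± 0.05 for GCSF (adjusted p = 0.379) and 0.02 ± 0.05 for LIF/PD. The GCSF arrays themselves lay 0.14 apart. Rras2 (TC21) read 10.36 on both controls, 10.55 and 10.40 under GCSF, and 10.48 and 10.37 under LIF/PD. The treated arrays of this gene were the 4 highest, by 0.12 ± 0.06 (adjusted p = 0.452) and 0.07 ± 0.06 (adjusted p = 0.868). Rras (R-RAS), a GTPase known for a part in integrin activation, read 10.80 and 10.76 in controls, 10.65 and 10.78 under GCSF, and 10.85 and 10.80 under LIF/PD. GCSF and control overlapped, and LIF/PD lay above GCSF by 0.11 ± 0.05 (adjusted p = 0.425), or by 0.05 without GCSF replicate 1.

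**Figure D2:**
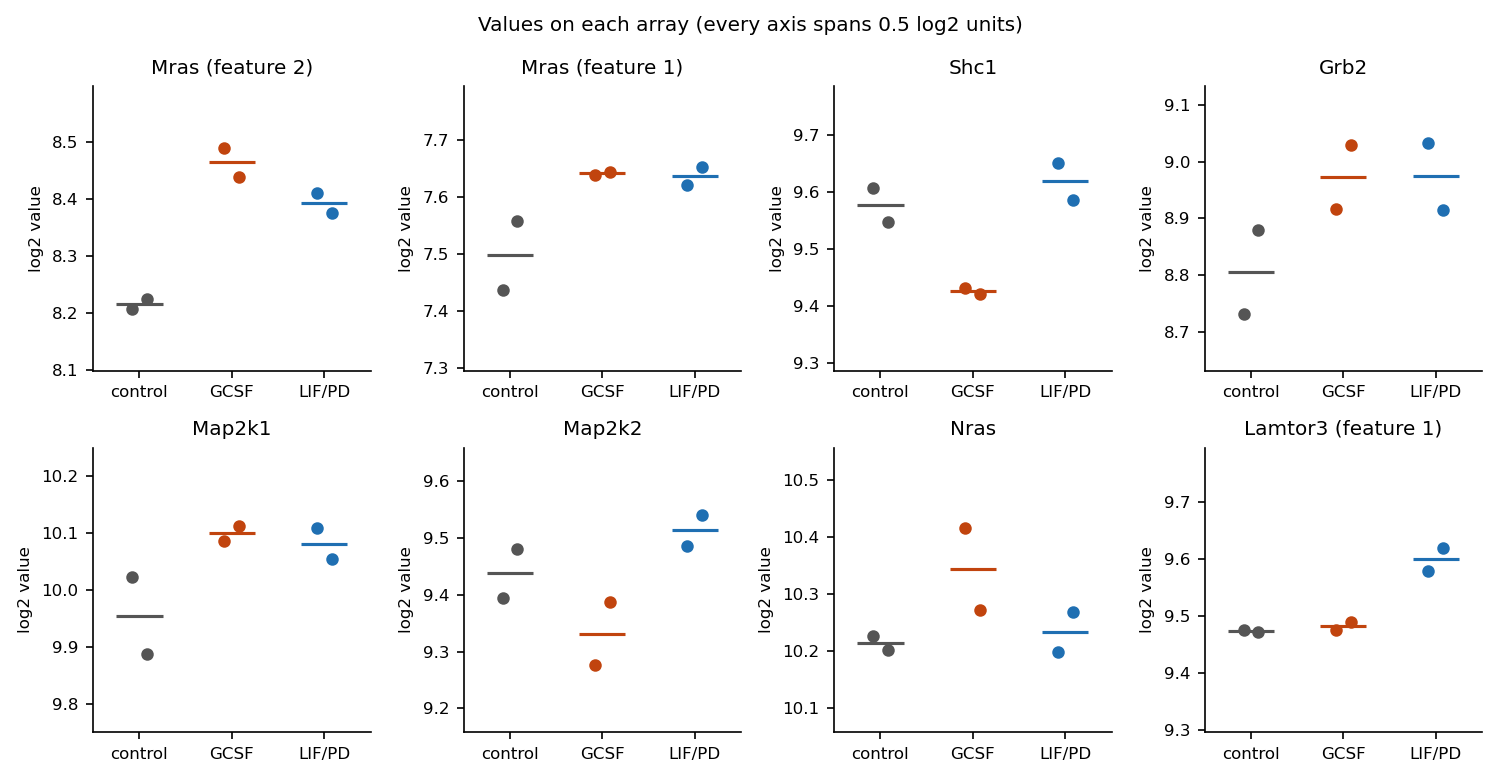
Log2 value on each of the 6 arrays for 7 member genes (8 features), with points for single arrays and lines for group means of control, GCSF and LIF/PD; every axis spans the same 0.5 log2 units but has its own position. Both Mras features are higher on all treated arrays, Shc1 is lowest on the GCSF arrays (9.43 and 9.42), and Lamtor3 feature 1 is highest on the LIF/PD arrays (9.58 and 9.62).

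The 3 genes of GTPase-activating proteins, which switch RAS off, did not pass either. Nf1 (neurofibromin) had means of 9.51, 9.49 and 9.51, and Rasa1 (p120 RasGAP) had means of 10.07, 10.06 and 10.07. The 6 values of Nf1 spanned 0.08 and those of Rasa1 0.06. Rasa2 had means of 8.42, 8.31 and 8.36, with both GCSF arrays below both controls and a difference of -0.11 ± 0.07 (adjusted p = 0.578), which was -0.05 without GCSF replicate 2. All 3 intervals for GCSF against control lay between -0.26 and 0.09.

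RAF kinases and their scaffolds gave 10 features of 7 genes. Braf read 9.84 and 9.83 in controls, 10.00 and 9.86 under GCSF, and 9.85 and 9.82 under LIF/PD. GCSF lay above the other groups without overlap, by 0.09 ± 0.05 from control (adjusted p = 0.516), and LIF/PD differed from control by 0.00 ± 0.05. Araf read 9.12 and 9.09 in controls, 9.16 and 9.19 under GCSF, and 9.03 and 9.11 under LIF/PD, and GCSF was again above the other groups. Its differences were 0.07 ± 0.05 for GCSF (adjusted p = 0.639), -0.03 ± 0.05 for LIF/PD and -0.10 ± 0.05 between the treatments (adjusted p = 0.466). Ksr1, a scaffold that holds RAF, MEK and ERK together, had means of 8.12, 8.22 and 8.12, but its GCSF arrays lay 0.21 apart at 8.12 and 8.32. Shoc2, the partner of M-RAS, had means of 10.36, 10.37 and 10.40, and Cnksr3, of the connector enhancer of KSR family, had means of 8.11, 8.17 and 8.22.

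Lamtor3 (MP1) encodes a scaffold of MEK1 and ERK1 on late endosomes, which also serves mTORC1. Its feature 10496397 (feature 1 in the plots) read 9.47 on both controls, 9.47 and 9.49 under GCSF, and 9.58 and 9.62 under LIF/PD. The LIF/PD arrays stood above the other 4, by 0.13 ± 0.04 over control (adjusted p = 0.696) and 0.12 ± 0.04 over GCSF (adjusted p = 0.313). The second feature, 10566405, read 11.11 and 11.12 in controls, 11.12 and 11.08 under GCSF, and 11.14 and 11.17 under LIF/PD. LIF/PD arrays were again the 2 highest, with differences of 0.04 ± 0.03 and 0.06 ± 0.03. Pebp1 encodes RKIP, which restrains signalling from RAF to MEK. Its feature 10362359 read 10.21 and 10.32 in controls, 10.11 and 10.22 under GCSF, and 10.22 and 10.25 under LIF/PD. Feature 10466439 read 9.81 and 9.79, then 9.69 and 9.82, then 9.85 and 9.90 in the same order, and feature 10533085 read 8.80 and 8.85, 8.58 and 8.90, and 8.88 and 8.78. On all 3 the lowest value was that of GCSF replicate 1, and GCSF overlapped control. The differences were -0.10 ± 0.05, -0.04 ± 0.05 and -0.08 ± 0.10 for GCSF, and -0.03 ± 0.05, 0.07 ± 0.05 and 0.00 ± 0.10 for LIF/PD. Without GCSF replicate 1 the GCSF differences were -0.05, 0.02 and 0.07, so that the last 2 turned sign. Between the treatments feature 10466439 differed by 0.12 ± 0.05 (adjusted p = 0.419), without overlap. In the platform annotation the features of Mras, of Lamtor3 and of Pebp1 each cite a common transcript, so features of 1 gene are not independent. That annotation does not say whether a feature also reads a related copy of its gene. By feature number, the members nearest to Pebp1 features 10362359 and 10466439 were Cnksr3 (chromosome 10) and Shoc2 (chromosome 19). The member nearest to Lamtor3 feature 10566405 was Rras2 (chromosome 7). Pebp1 itself is on chromosome 5 and Lamtor3 on chromosome 3. Their other features, 10533085 and 10496397, were nearest to Ptpn11 and Nras, of those same chromosomes. Which copy each feature reads was not tested.

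MEK1 and MEK2, the direct targets of PD0325901, are encoded by Map2k1 and Map2k2. Map2k1 read 10.02 and 9.89 in controls, 10.09 and 10.11 under GCSF, and 10.11 and 10.05 under LIF/PD. All treated arrays lay above both controls, by 0.14 ± 0.05 for GCSF (adjusted p = 0.308) and 0.13 ± 0.05 for LIF/PD (adjusted p = 0.736), and the controls lay 0.14 apart. Without control replicate 2 the differences were 0.08 and 0.06. Map2k2 read 9.39 and 9.48 in controls, 9.28 and 9.39 under GCSF, and 9.49 and 9.54 under LIF/PD. Its LIF/PD arrays were the 2 highest and its GCSF arrays the 2 lowest, a difference between the treatments of 0.18 ± 0.05 (adjusted p = 0.220). Against control it differed by -0.11 ± 0.05 for GCSF (adjusted p = 0.494, and -0.05 without GCSF replicate 1) and 0.08 ± 0.05 for LIF/PD (adjusted p = 0.840). The branch of MEK5 and ERK5, which runs beside the main MEK and ERK cascade, did not pass. Map2k5 had means of 8.33, 8.35 and 8.28, and Mapk7 (ERK5) had means of 9.37, 9.31 and 9.35. Their differences from control ran from -0.06 to 0.02.

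Of the RSK kinases, which ERK phosphorylates, only Rps6ka3 (RSK2) was measured. It read 8.70 and 8.63 in controls, 8.87 and 8.72 under GCSF, and 8.75 and 8.81 under LIF/PD. Treated arrays were above both controls, by 0.13 ± 0.06 for GCSF (adjusted p = 0.481) and 0.11 ± 0.06 for LIF/PD (adjusted p = 0.806), and the treatments differed by -0.02 ± 0.06.

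**Figure D3:**
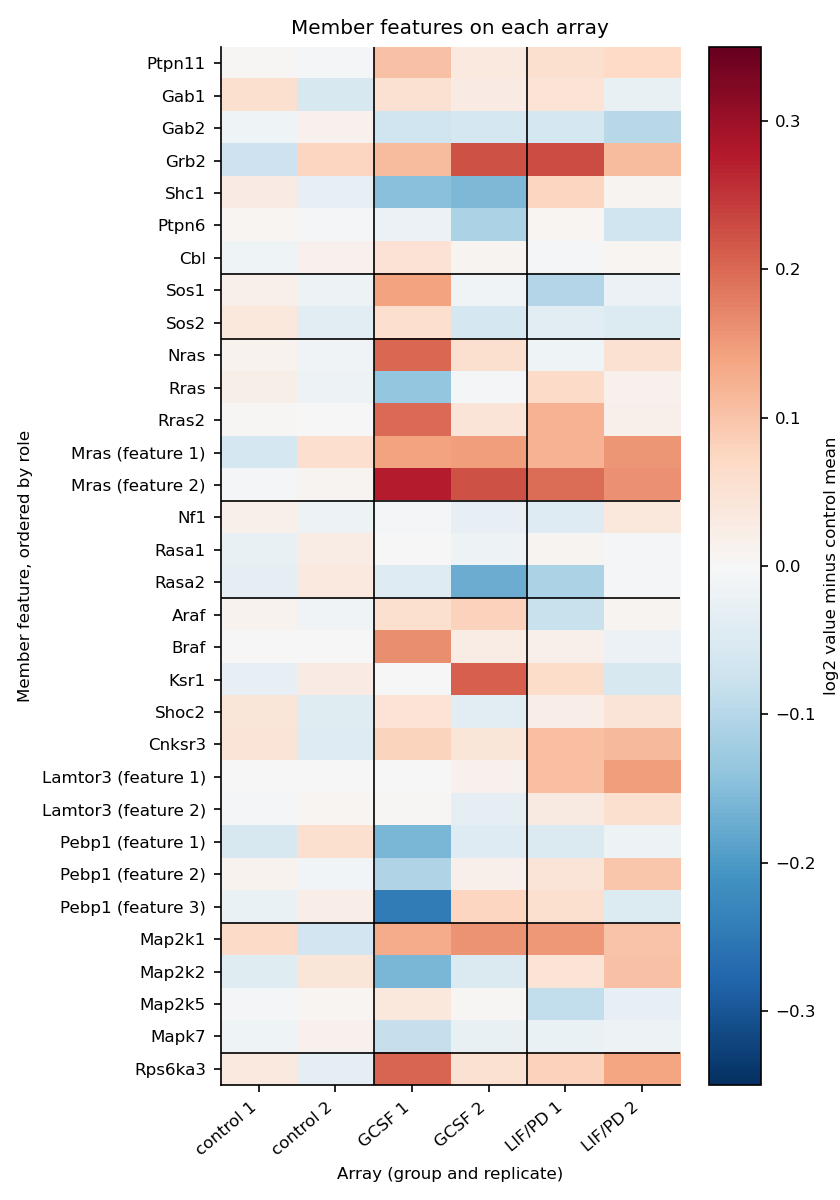
Log2 value of each member feature on each array minus that feature's control mean (colour scale in log2 units), with features ordered by role (horizontal lines) and arrays by group (vertical lines). Mras feature 2 is the warmest row under treatment, and GCSF replicate 1 holds the highest value of 11 of the 32 features and the lowest of 6.

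Groups that do not overlap were common among members and among all features, and the shares were not tested against each other. The 2 GCSF arrays lay wholly above or below the 2 controls for 16 of 32 features, which is 50%, against 41.8% of all features. For LIF/PD against control this held for 17 of 32, or 53.1%, against 38.4%, and between the treatments for 15 of 32, or 46.9%, against 41.5%. Several members had all treated arrays above both controls, but the share of all features with that joint pattern was not computed. Both comparisons with control use the same control arrays, so they are not independent. GCSF replicate 1 gave the highest value of 11 of 32 member features, and of 22.2% of all features. Nras, Rras2, Sos1, Braf and Rps6ka3 were among these, each 0.14 to 0.15 above GCSF replicate 2. This array also had the highest control block median, whose part in the GCSF differences was not tested. Without the array, the GCSF differences were 0.06 for Nras, 0.04 for Rras2, -0.01 for Sos1, 0.03 for Braf and 0.05 for Rps6ka3.

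**Figure D4:**
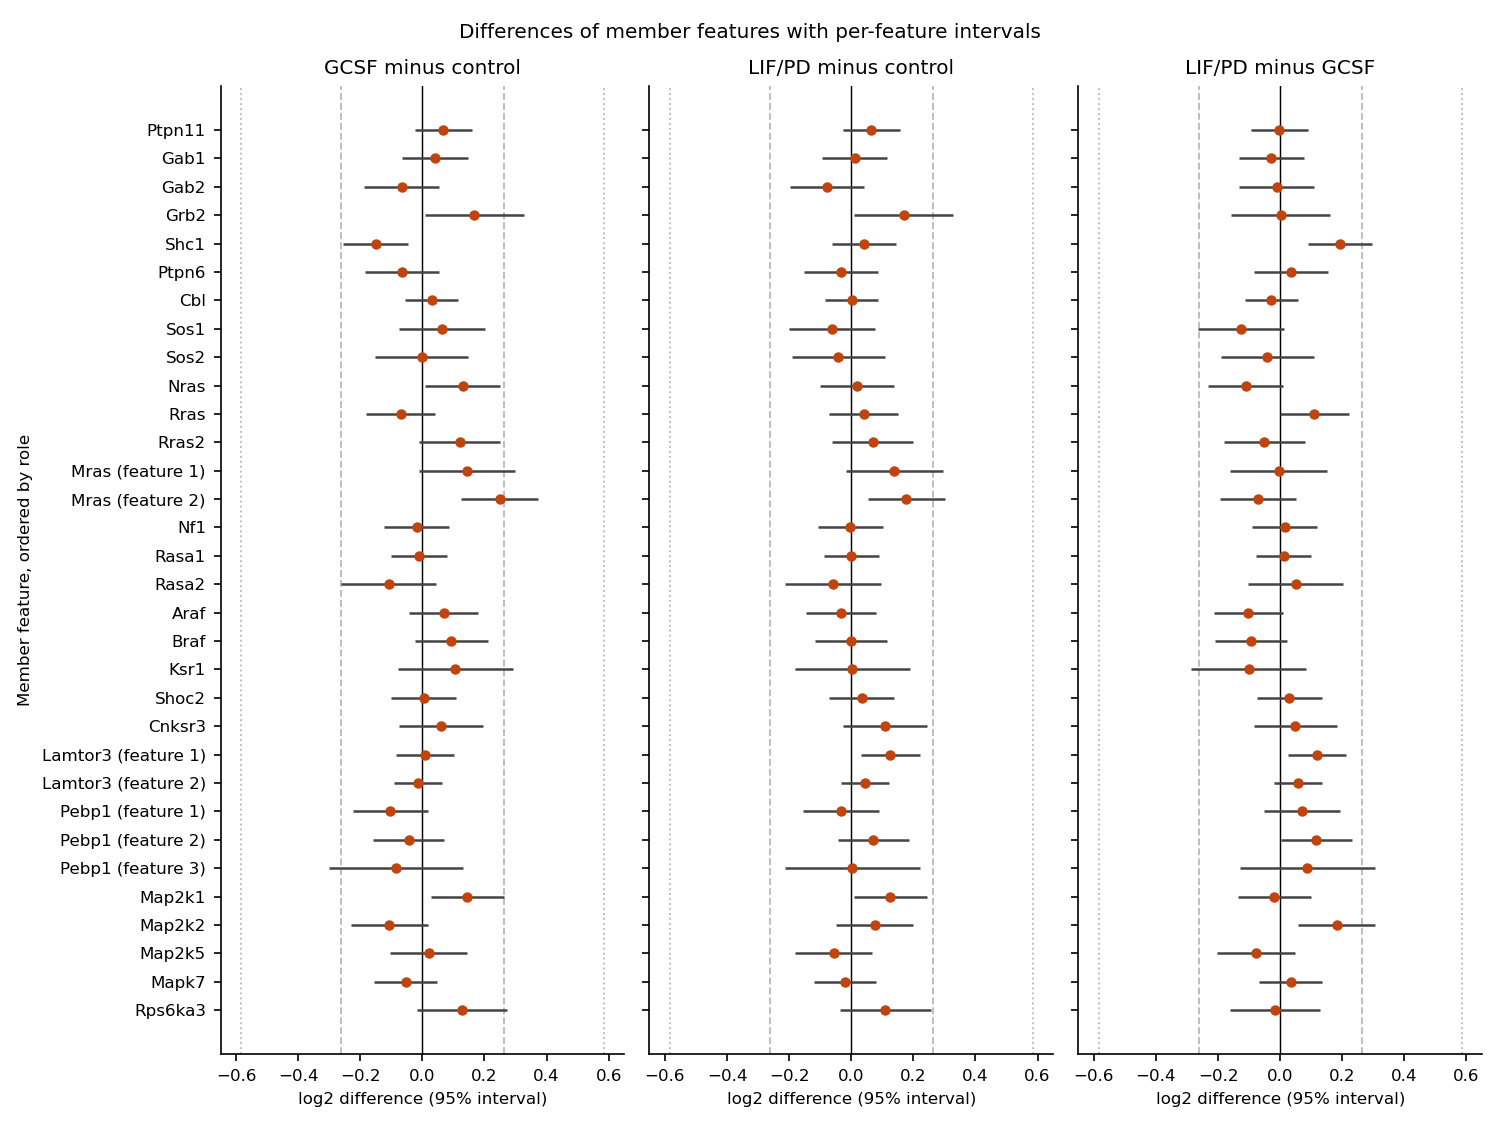
Log2 difference of each member feature (points) with its 95% interval (lines) in the 3 comparisons, with dashed lines at 1.2-fold and dotted lines at 1.5-fold in either direction. Every interval lies inside the dotted lines, and the farthest bound is 0.37, for Mras feature 2 under GCSF.

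Other genes of the relay were taken from a list of 67 adaptors, exchange factors, GTPases, regulators and effectors, of which 62 had a feature and 55 a tested one. None of their 57 features passed in any comparison with limma, where 1.17%, 0.065% and 0.846% of all tested features did. With shares this small, the absence of calls does not set these genes apart. Before adjustment a p under 0.05 was reached by 4 for GCSF, 2 for LIF/PD and 2 between the treatments, which is 7.02%, 3.51% and 3.51%, against 12.1%, 6.59% and 11.8% of all features. Their median differences were 0.01 for GCSF, 0.01 for LIF/PD and 0.02 between the treatments. Their intervals lay inside 1.5-fold for 57 of 57 features in each, as did those of 98.7%, 99.2% and 99.0% of all tested features. For GCSF the extremes were 0.16 ± 0.06 for Frs3, an FGF receptor adaptor gene, and -0.14 ± 0.06 for Dok2, of the family of docking proteins that restrain RAS. Dok1, of the same family, had the smallest adjusted p of this list between the treatments, at 0.26 ± 0.07 (adjusted p = 0.147).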

How the data were processed

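Biotin-labelled total RNA of 6 samples was hybridised to 1 array each. The table that the authors deposited holds log2 values between 2.29 and 14.50; the log base was read from their range, and the authors' background correction, summarization and normalization are not given in the sources used here. Values were used as deposited. Genes were named through the platform annotation. A block of 6573 features numbered below the first annotated one was left out as controls. Of the others, those whose mean reached the 40th percentile (6.70) entered the test.

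Group means were fitted to all 6 arrays with limma 3.58.1 in R 4.3.3, with an intensity trend in the variances (3 residual and 8.4 total degrees of freedom). Calls needed a two-sided Benjamini-Hochberg adjusted p under 0.05. The fit was also run on simulated data with independent normal noise in each feature and no array effects. That run checks the code and lends no support to the absence of calls among members. The number of arrays limits the precision.

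Values on every array were given for Ptpn11, Gab1, Grb2, Braf, Map2k1, Map2k2 and the 10 further members with the smallest p; other pathway genes would have been named if called, and Frs3, Dok1 and Dok2 were named after their values were seen. Members and lists were chosen with earlier results of these data known. Alternatives covered the replicate block, arrays, filter, normalization, variances, features per gene and each array left out.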

Additional observations from a re-analysis of the deposited data

How the results depend on the processing

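The count of members passing with limma was 0 in every comparison under every alternative tried except one: with 1 feature kept per gene, 1 member (Mras) passed for GCSF against control. Over the 14 other settings the adjusted p of that Mras feature ran from 0.0714 to 0.370 and its difference from 0.22 to 0.27. Of 96 member differences 59 kept their sign under all settings that gave a value. In the other 37 there were 61 changes of sign, none with an unadjusted p under 0.05 before or after. The second Mras feature fell below the filter at the 60th percentile and has no value there. Counts over all features moved more. Without an intensity trend they were 125 for GCSF, 1 for LIF/PD and 71 between the treatments, against 198, 11 and 143. With only the 2 groups compared in the fit, 82 passed between the treatments. With an array left out they ran from 88 (without control replicate 1) to 164, from 1 to 7 and from 30 (without LIF/PD replicate 1) to 91. Leaving one out also costs a degree of freedom, and the lone array of its group is assumed to vary like the other groups. The replicate numbers do not pair the samples by their labels, and differences between replicates 1 and 2 correlated at 0.01 to 0.10 between groups. With the replicate block, 195, 9 and 165 features and 0 members passed. With 2 arrays per group, changes smaller than the intervals given are not resolved.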
